A study of Mus musculus with 4 samples.

Results

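The genes described here are those of glycolysis and of the transcriptional response to low oxygen in primary fibroblasts of mouse embryos, which are cells of connective tissue put straight into culture. They were chosen by name, as 39 genes in 4 roles: 17 glycolytic enzymes, 8 transporters and controls of glycolytic flux, 12 genes that respond to hypoxia-inducible factor (HIF), and 2 HIF alpha subunits. Of the 39, 35 had at least 1 probe set annotated with that symbol alone, and 34 of these were bright enough to enter the test. The groups were 2 independent RBP2-/- lines, called RBP2-null here, and 2 independent wild-type lines, all at passage 3 and each measured on 1 Affymetrix array. RBP2 is the protein now named Kdm5a, a demethylase of lysine 4 on histone H3, and the question asked was which transcripts differ when it is lacking. The deleted part of the gene, the strain, the embryonic age and the oxygen and glucose in culture are not stated in the sources used here. Since each genotype had 2 lines, a p-value here speaks only of the spread among these 4 arrays.

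Glycolysis breaks glucose down to pyruvate in the cytosol and, when lactate dehydrogenase takes the pyruvate, runs without oxygen. Fibroblasts in culture use it heavily. HIF pairs an unstable alpha subunit, Hif1a or Epas1, with a stable partner. When oxygen is present, prolyl hydroxylases of the Egln family mark the alpha subunit for destruction, so HIF is controlled mainly through its protein and not through its mRNA. When oxygen is scarce HIF accumulates, binds a short core motif in DNA and raises many glycolytic genes together with others for vessel growth, pH control and mitochondrial turnover. Kdm5a, the Egln enzymes and the collagen prolyl hydroxylases P4ha1 and P4ha2 belong to 1 broad enzyme class that consumes oxygen and alpha-ketoglutarate.

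The genes were picked by name for these roles, without a search of the HIF core motif before their transcript start sites. HIF acts through this motif, so a high share of it among genes known to respond to HIF is partly built into the choice. The motif was searched as ACGTG or its reverse complement CACGT in the 250 bases before each start site in RefSeq sequences of build GRCm38.p6, which held 35 of the 39 genes, all but Slc2a3, Bnip3l, Epas1 and Ndrg1. The windows below show it in genes of every role, in lower case with each match in capitals, 5′ to 3′ on the strand of the gene. Overlapping matches on both strands, written CACGTG, are 1 site.
Ldha: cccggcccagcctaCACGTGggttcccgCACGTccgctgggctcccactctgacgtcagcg
Pgk1: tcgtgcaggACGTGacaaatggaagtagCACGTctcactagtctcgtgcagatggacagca
Pgam1: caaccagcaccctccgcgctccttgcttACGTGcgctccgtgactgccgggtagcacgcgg
Slc2a1: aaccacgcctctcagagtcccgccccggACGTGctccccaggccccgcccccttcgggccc
Slc16a3: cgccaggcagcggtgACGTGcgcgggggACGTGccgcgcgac
Bnip3: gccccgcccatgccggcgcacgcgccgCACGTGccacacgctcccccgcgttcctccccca
P4ha2: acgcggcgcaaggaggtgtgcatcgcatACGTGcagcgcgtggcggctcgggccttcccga
Egln1: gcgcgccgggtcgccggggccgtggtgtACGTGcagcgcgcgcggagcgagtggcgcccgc
Hif1a: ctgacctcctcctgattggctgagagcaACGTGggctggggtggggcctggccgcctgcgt

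These windows lie at chr7:46845742-46845802 for Ldha, chrX:106186941-106187001 for Pgk1, chr19:41911729-41911789 for Pgam1, chr4:119108681-119108741 for Slc2a1 and chr11:120949025-120949066 for Slc16a3, all on the plus strand. Those of P4ha2 and Hif1a are also on the plus strand, at chr11:54100818-54100878 and chr12:73907769-73907829. Bnip3 and Egln1 are read from the minus strand, at chr7:138909581-138909641 and chr8:124949290-124949350. Counting over the whole 250 bases, Ldha, which turns pyruvate into lactate, had 3 sites, and Pgk1, Slc16a3 and Hif1a had 2 each.

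Before at least 1 listed start site the ACGTG motif stood in 22 of 35 genes, or 62.9%, against 4998 of 27025 genes in the whole table, or 18.5%. Among HIF-responsive genes it stood in 9 of 10, all but Adm, and among transporters and flux controls in 5 of 7. Glycolytic enzymes had it in 7 of 17, which were Hk2, Pfkm, Aldoa, Pgk1, Pgam1, Pkm and Ldha. The related form GCGTG, or CACGC, stood in 24 of the 35 genes, or 68.6%, against 30.9% of all genes. These promoters were also richer in G and C, with a median of 61.6% over 49 start sites against 52.4% over all 32851. Among start sites with 60 to under 70% G and C, 14 of 20 from these genes held ACGTG, against 1471 of 6141 over all genes, or 24.0%. Start sites with less G and C were not compared in this way. Pairs of C followed by G, 1 of which lies in the motif, had a median of 14 against 6 and were not matched. A match is a run of letters and says nothing on whether HIF binds there in these cells.

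**Figure D1:**
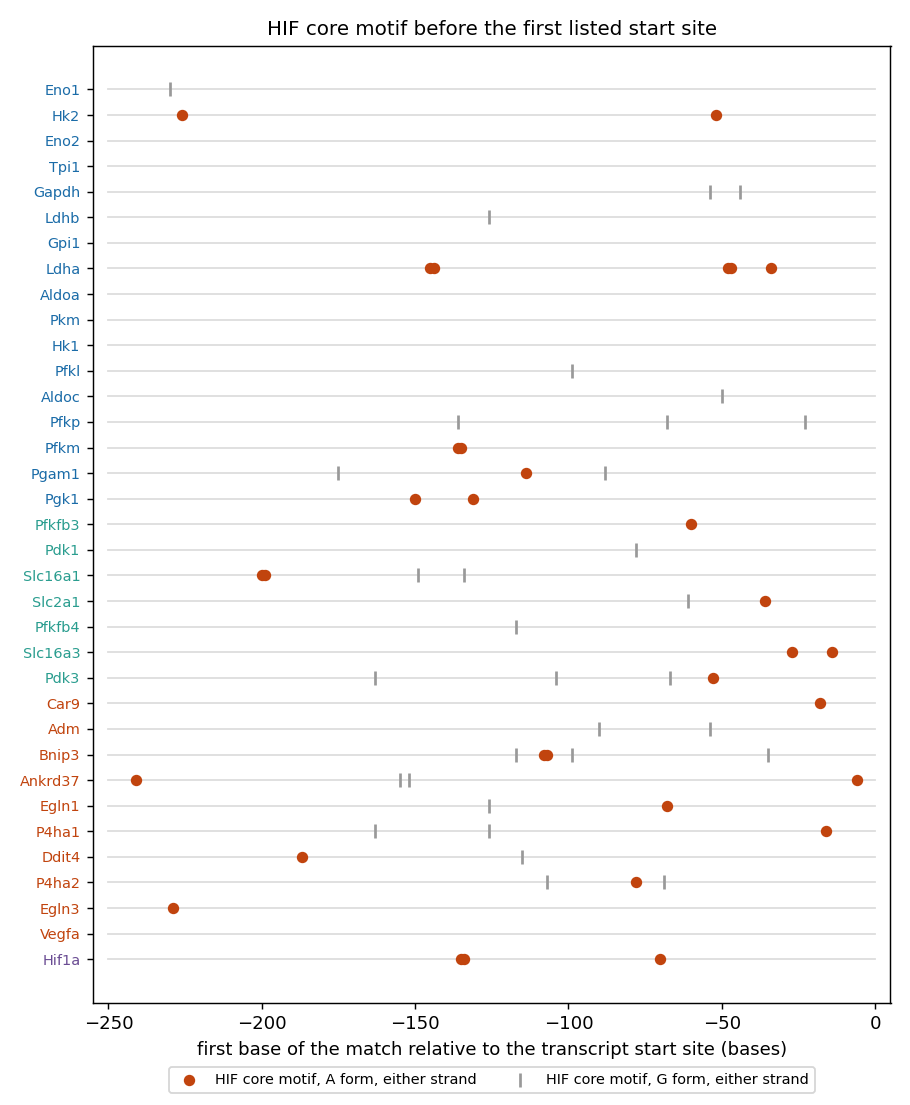
Position of the HIF core motif before the first listed start site of 35 genes, with the distance from the start site in bases on the x axis. Circles mark the A form (ACGTG) and ticks the G form (GCGTG) on either strand, and names are coloured by role, with enzymes at the top; 19 genes carry the A form before this start site.

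The arrays held 45101 probe sets, groups of short probes meant to read 1 transcript. Median deposited signal was 21.5 and 43.7 on the RBP2-null arrays and 22.7 and 29.4 on the wild-type arrays, so the arrays were brought to a common distribution before comparison. All levels below are log2(signal + 9) after that step, unless called deposited. Wild-type line 1 stood apart, with a correlation of 0.927 to 0.928 with the other arrays, whose highest correlations were 0.951 to 0.965. The 10 fibroblast markers were all above the filter, with a summed normalized signal of 41417 and 44814 in RBP2-null lines and 40176 and 44447 in wild-type lines. Lists of macrophage, endothelial, epithelial, skeletal muscle and erythroid markers each summed to between 50.7 and 828 on an array. The macrophage list, with Ptprc, Cd68 and Itgam below the filter, summed to 326 and 316 in RBP2-null lines and 508 and 361 in wild-type lines. The erythroid list summed to 69.7 and 50.7 in RBP2-null lines and 113 and 82.3 in wild-type lines, and the part of either list in the results was not tested. Kdm5a itself, by its 5 kept probe sets from bright to dim, had log2 fold changes of -0.74, -1.24, -0.25, 0.24 and 0.15, and 0 of them passed the threshold. On the first pair both RBP2-null lines were below both wild-type lines. Which part of the gene each probe set reads relative to the deletion is not known here. In bulk RNA, fewer cells of a type and less RNA per cell cannot be told apart.

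No gene of glycolysis or of the hypoxia response passed the threshold of a limma adjusted p of 0.05 between RBP2-null and wild-type lines, and the adjusted p was 1.00 for each of the 34 tested. Over all 27022 probe sets tested, 1 passed, or 0.0037%. At an unadjusted p under 0.05 there was 1 of the 34 genes, the enolase Eno2, against 2.98% of all probe sets in either direction and 1.42% lower in RBP2-null lines. Estimates lay above 0 for 13 genes and below 0 for 21, with a median log2 fold change of -0.019, against -0.010 over all 13097 genes tested. In 11 of the 34, or 32.4%, both RBP2-null arrays lay on 1 side of both wild-type arrays, close to the 29.5% of all probe sets. Of the 34, only Eno2 had an estimate beyond 0.5 in size, or 2.94%, where 1839 of all 13097 genes did. Brightness was not matched in this comparison.

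Log2 differences are RBP2-null minus wild type, so a positive one is higher in RBP2-null lines, and SE is limma's standard error of it. The intervals bound the difference on a gene's brightest probe set more closely than the calls do. For 29 of the 34 genes, or 85.3%, that 95% interval lay within a 2-fold difference in either direction, against 59.3% of all genes tested. The exceptions were Eno2, Pfkfb3, Slc16a1, Car9 and Ankrd37. For 8 genes it lay within 1.5-fold, namely Hk1, Aldoa, Pgk1, Pkm, Ldha, Bnip3, Ddit4 and P4ha1. Among dimmer kept probe sets, some of Egln1, Slc2a3, Pdk1, Pfkp, Hif1a and Ndrg1 had intervals that passed 2-fold. Some of Hk1, Aldoa, Pgk1 and P4ha1 had intervals that passed 1.5-fold. The median standard error was 0.24 for these genes and 0.30 for all genes. It ran from 0.145 for Pgk1, the brightest of the set, to 0.52 for Car9, one of the dimmest. The shares of intervals were not matched for brightness. Intervals are per gene and are not widened for the number of genes read. They hold for arrays brought to a common distribution, and were not counted under the other scalings.

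**Figure D2:**
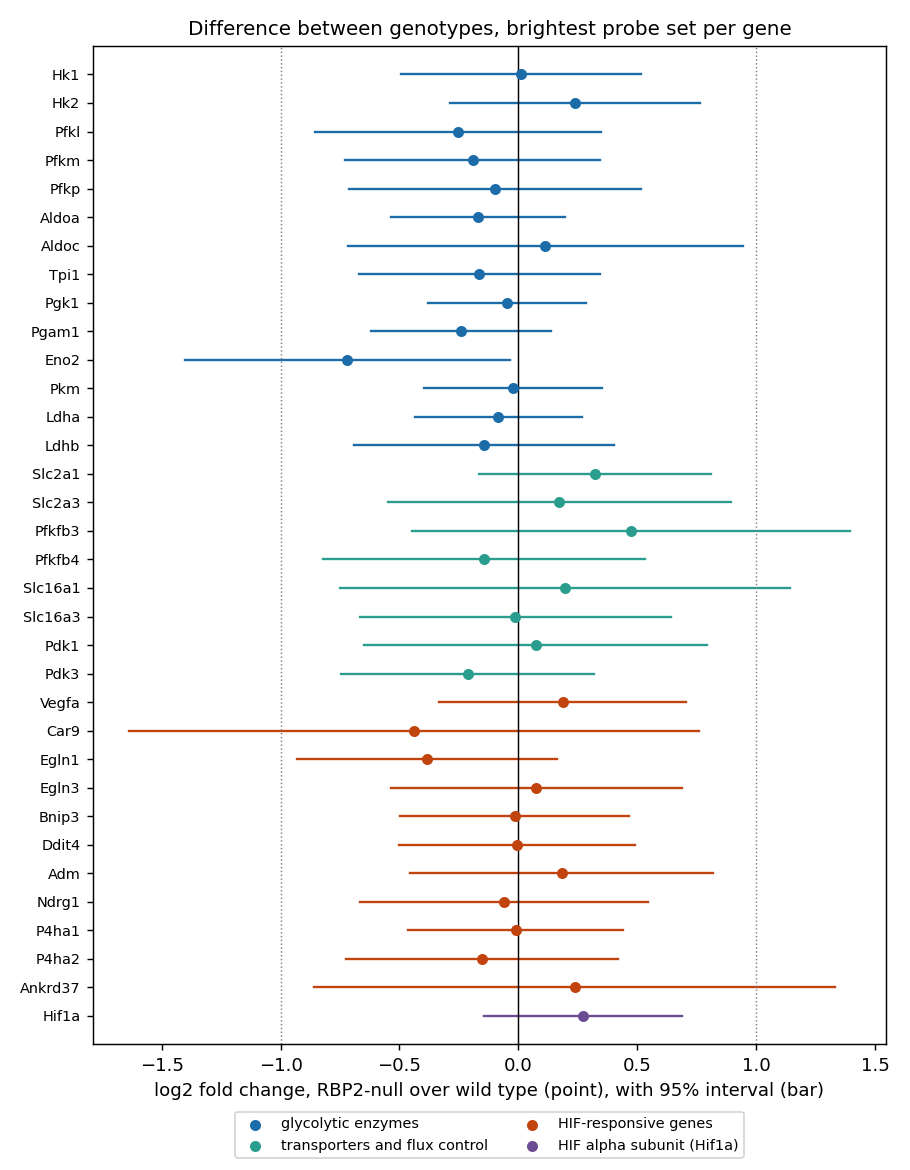
Log2 fold change of RBP2-null over wild type for the 34 tested genes, as points with 95% limma intervals as bars and dotted lines at a 2-fold difference. Of the 34 intervals, 33 cross 0, and that of Eno2 runs from -1.40 to -0.034.

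Glucose enters fibroblasts through Slc2a1, the ubiquitous transporter also called Glut1. It had 9.20 and 9.56 in RBP2-null lines, against 9.003 and 9.12 in wild-type lines. Both RBP2-null values were above both wild-type values, and most of the gap came from RBP2-null line 2. The log2 difference was 0.32 (SE 0.21), with a 95% interval from -0.16 to 0.81. With each array left out in turn it ran from 0.15, without RBP2-null line 2, to 0.50, without RBP2-null line 1. Other Slc2a1 probe sets had 0.078 and -0.086. Slc2a3, a high-affinity glucose transporter best known from neurons, had a log2 difference of 0.17 (SE 0.32), and its lines overlapped. Dimmer kept Slc2a3 probe sets had 0.099 and -0.39.

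Hexokinase traps glucose in the cell as its phosphate. Hk2, the form that HIF and insulin induce, had 8.01 and 7.92 in RBP2-null lines, against 7.81 and 7.64 in wild-type lines. The groups did not overlap, by a small margin, and the log2 difference was 0.24 (SE 0.23). Hk1, the housekeeping form, had 0.012 with an interval from -0.49 to 0.52. Gpi1, which makes the next step to fructose phosphate, had no probe set annotated with it here and was not analysed.

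Phosphofructokinase commits the sugar to glycolysis, and its 3 subunits all had estimates below 0 with groups that overlapped. Pfkl, the liver-type subunit, had 8.75 and 9.36 in RBP2-null lines, against 9.11 and 9.51 in wild-type lines. Lines of the same genotype differed here by more than the genotype means did. Its log2 difference was -0.25 (SE 0.26), and the other Pfkl probe sets had -0.23 and -0.18. Pfkm, the muscle-type subunit, had 7.80 and 7.99 in RBP2-null lines and 8.22 and 7.95 in wild-type lines, with a log2 difference of -0.19 (SE 0.23). Pfkp, the platelet-type subunit, had -0.099, while a dimmer Pfkp probe set had 0.32.

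Pfkfb3 and Pfkfb4 make and remove the sugar bisphosphate that activates phosphofructokinase. The brightest Pfkfb3 probe set had 5.61 and 5.79 in RBP2-null lines, against 4.82 and 5.63 in wild-type lines. Wild-type line 1 was low, and wild-type line 2 lay between the RBP2-null lines. The log2 fold change of Pfkfb3 was 0.47 (SE 0.40), the largest positive estimate among the 34 genes. It was 0.069 without wild-type line 1 and 0.88 without wild-type line 2. Deposited Pfkfb3 signal on wild-type line 1 was 15.2, not far above the 9 added before taking logarithms. Pfkfb4 had -0.14 (SE 0.30).

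Aldolase and triose phosphate isomerase split the sugar and interconvert the products. Aldoa, the main fibroblast and muscle aldolase, had 11.29 and 11.33 in RBP2-null lines, against 11.45 and 11.51 in wild-type lines. The groups did not overlap, and the log2 difference was -0.17 (SE 0.16). The other 4 Aldoa probe sets ran from -0.24 to 0.079. Tpi1 had 9.99 and 10.55 in RBP2-null lines and 10.38 and 10.49 in wild-type lines. Its RBP2-null lines enclosed the wild-type lines, and its 3 probe sets had -0.16, -0.068 and -0.10. Aldoc, the brain-type aldolase, had 0.11 (SE 0.36).

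Gapdh oxidises the triose and is widely used as a loading control. Its regular probe sets share their annotation with pseudogenes, so it is given from 3 array control probe sets that read the 5′ end, the middle and the 3′ end of its transcript. Deposited signal in the middle was 6893 and 7908 in RBP2-null lines, against 4864 and 7040 in wild-type lines. With control probe sets kept in the scaling and the fit, a setting chosen after seeing the data, the normalized values there were 12.75 and 12.59 in RBP2-null lines and 12.77 and 12.71 in wild-type lines. The log2 fold changes of the 5′, middle and 3′ control probe sets of Gapdh were 0.020, -0.072 and -0.067. Their standard errors were 0.14, 0.15 and 0.16. Wild-type line 1 was thus lowest in deposited Gapdh signal, and no such gap remained once the arrays were on a common scale.

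Pgk1 and Pgam1 carry the phosphate on towards enolase, and Pgk1 makes the first ATP of the pathway. The brightest Pgk1 probe set had a log2 difference of -0.046, its interval running from -0.38 to 0.29, and dimmer ones had -0.24 and 0.45, the last with an unadjusted p of 0.0595. Pgam1 had 10.83 and 10.78 in RBP2-null lines, against 11.06 and 11.04 in wild-type lines. The RBP2-null lines differed by 0.050 and the wild-type lines by 0.020, and the groups did not overlap. The log2 fold change of Pgam1 was -0.24 (SE 0.17), with an interval from -0.62 to 0.14, since the fit borrows its spread from other probe sets of like brightness. As a ratio the interval runs from 0.651-fold to 1.10-fold.

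Eno2, the enolase isoform best known from neurons and neuroendocrine cells, had the largest estimate of the set. It had 5.74 and 6.07 in RBP2-null lines, against 6.53 and 6.72 in wild-type lines. The groups did not overlap. The log2 difference was -0.72 (SE 0.30), or 0.608-fold, with an unadjusted limma p of 0.0417 and an adjusted p of 1.00. It stayed between -0.85 and -0.55 with each array left out in turn, and only 1 probe set read the gene. No gene of the set had an unadjusted p under 0.05 with median-centred or unscaled arrays, without the filter, or without wild-type line 2, RBP2-null line 1 or RBP2-null line 2. Deposited signal of Eno2 was 32.5 and 90.2 in RBP2-null lines and 54.5 and 98.4 in wild-type lines, so without scaling the groups overlap. Eno1, the common enolase of most tissues, had no probe set annotated with it here and was not analysed.

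Eno2 lies on chromosome 6 with Kdm5a itself, as do Slc2a3, Tpi1, Gapdh and Ldhb on the same side and Hk2 on the other. In the RefSeq gene order 28 protein-coding genes stand between Kdm5a and Slc2a3, 64 before Eno2, 67 before Tpi1 and 86 before Gapdh. The nearest of them, Slc2a3, had log2 differences on both sides of 0. These were 0.17 on its brightest probe set, 0.099 and -0.39 on dimmer kept ones, and -0.82 on 1 too dim to be tested. Tpi1, close beside Eno2, had -0.16 on its brightest. The sources used here do not state the strain of the DNA around the targeted allele, and its part was not tested.

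Pyruvate kinase (Pkm) and lactate dehydrogenase end the pathway. Ldha had 12.08 and 11.97 in RBP2-null lines, against 12.15 and 12.07 in wild-type lines. The lines overlapped, and the log2 difference was -0.083 with an interval from -0.44 to 0.27, or 0.739-fold to 1.21-fold. Pkm had -0.022 with an interval from -0.40 to 0.35. Ldhb, the heart-type subunit that favours the reverse reaction, had -0.14 on its brightest probe set, where the groups did not overlap, and from -0.40 to 0.030 on the other 3.

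As a group, 11 of the 14 tested glycolytic enzymes had an estimate below 0 and 3 had one above, where 51.5% of all genes tested had one below. Their median log2 difference was -0.12, and 0 of the 14 passed the threshold. On the brightest probe sets, both RBP2-null lines lay below both wild-type lines for Eno2, Pgam1, Aldoa, Ldhb and Pgk1, or 5 of 14. Both lay above for Hk2 alone. Over all probe sets the shares were 14.9% below and 14.6% above. Dimmer Pgk1 probe sets also separated the lines, that at -0.24 below and that at 0.45 above. Averaged over all kept probe sets of a gene, Pgk1 had 0.054 and Pfkp 0.11, and the median of the enzymes was -0.083. The median was -0.19 to -0.075 with each array left out in turn. It was -0.047 with arrays centred on their medians, relative to the median of all probe sets. All enzymes were read on the same 4 arrays, so their signs are not independent of each other.

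Slc16a1 and Slc16a3, the monocarboxylate transporters Mct1 and Mct4, move lactate across the membrane. Slc16a1 had 7.62 and 8.42 in RBP2-null lines, against 7.23 and 8.42 in wild-type lines. Line 2 of each genotype was high and line 1 low, and the genotypes overlapped. Its log2 difference was 0.20 (SE 0.41), and it ran from -0.40 to 0.79 with each array left out in turn. Slc16a3, which exports lactate and is a known HIF target, had 8.49 and 8.66 in RBP2-null lines and 8.19 and 8.99 in wild-type lines. The wild-type lines enclosed both RBP2-null lines, and the log2 difference was -0.012.

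Pdk1 and Pdk3 hold back the oxidation of pyruvate in mitochondria by inactivating pyruvate dehydrogenase. Pdk3 had 8.13 and 7.79 in RBP2-null lines, against 8.18 and 8.17 in wild-type lines. The groups did not overlap, with RBP2-null line 2 standing off and RBP2-null line 1 just below wild type. The log2 fold change of Pdk3 was -0.21 (SE 0.23). Pdk1 had 0.073 on its brightest probe set, and 0.41 and -0.11 on dimmer ones. Of the 8 transporters and flux controls, 5 estimates lay above 0 and 3 below (median 0.12).

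**Figure D3:**
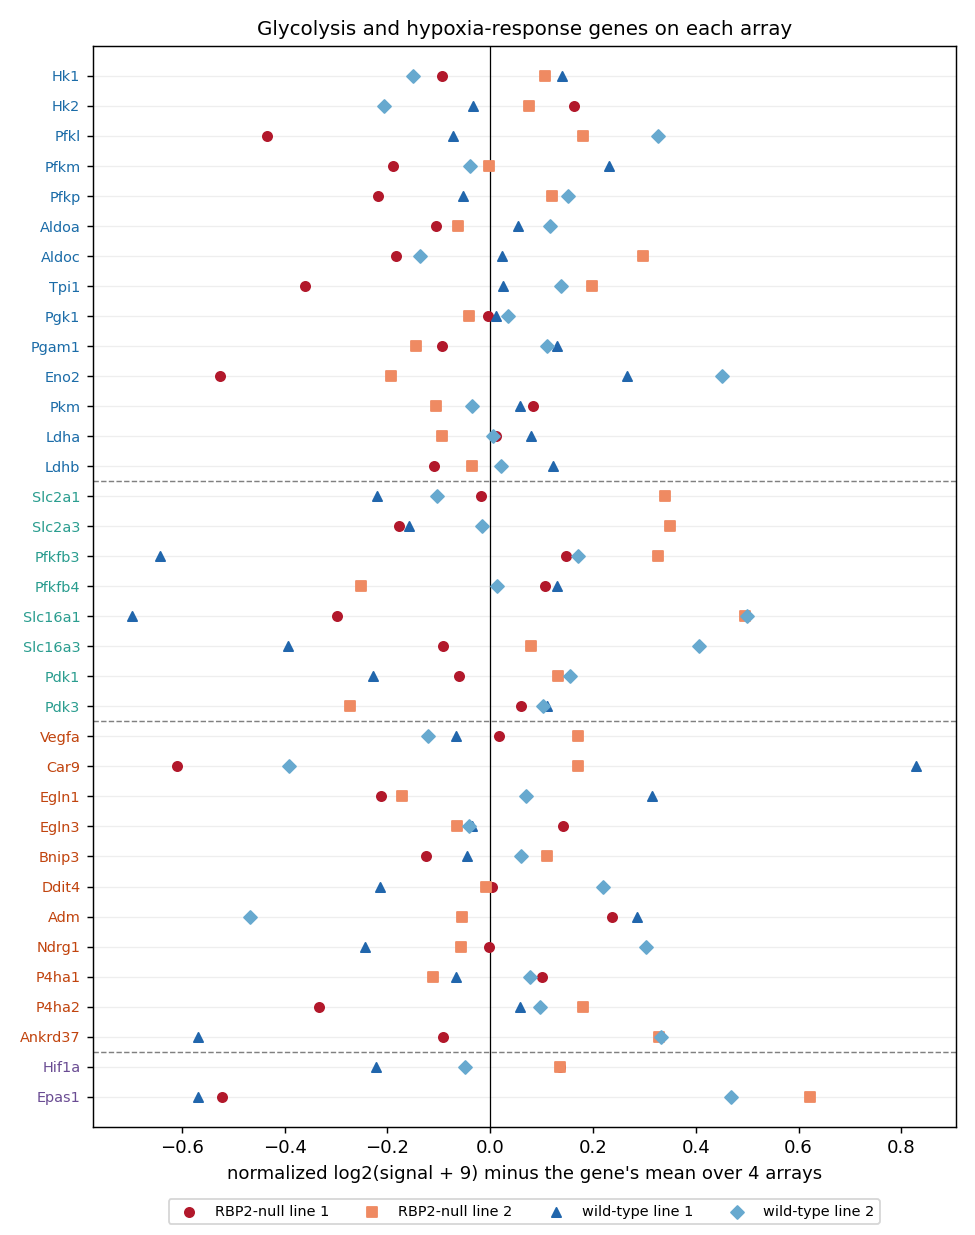
Normalized log2 signal of 35 genes on each array, as the distance from the gene's own mean over the 4 arrays, with dashed lines between enzymes, transporters and flux controls, HIF-responsive genes and HIF alpha subunits from top to bottom. Most points lie within 0.5 of the mean; wild-type line 1 stands off for Pfkfb3, Slc16a1, Ankrd37 and Car9, and the RBP2-null points of Eno2 lie left of both wild-type points.

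Hif1a, the broadly expressed alpha subunit, had 10.23 and 10.23 in RBP2-null lines, against 9.87 and 10.04 in wild-type lines. Both RBP2-null values were above both wild-type values. The log2 difference was 0.27 (SE 0.18), with an interval from -0.14 to 0.69, or 0.905-fold to 1.61-fold. Dimmer Hif1a probe sets had -0.095 and 0.31. Epas1, the alpha subunit HIF-2alpha typical of endothelium, was too dim to be tested. It had 3.89 and 5.03 in RBP2-null lines and 3.84 and 4.88 in wild-type lines, with deposited signals of 4.0 and 35.1 in RBP2-null lines and 4.3 and 20.5 in wild-type lines. Its line 2 was the brighter one in both genotypes, and the genotypes overlapped.

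Egln1 is the main oxygen sensor of the HIF pathway and is itself raised by HIF. Its brightest probe set had 7.39 and 7.43 in RBP2-null lines, against 7.91 and 7.67 in wild-type lines. The groups did not overlap, and the log2 difference was -0.38 (SE 0.24), the second smallest unadjusted p of the set at 0.146. The dimmer Egln1 probe set gave 0.54 (SE 0.40), on the other side of 0. Its values were 7.33 and 7.35 in RBP2-null lines and 6.16 and 7.44 in wild-type lines, with wild-type line 1 low and wild-type line 2 above both RBP2-null lines. Egln3, a sister enzyme that HIF induces strongly, had 0.076 (SE 0.27).

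Vegfa, the growth factor of blood vessels and a classic HIF target, had 7.90 and 8.05 in RBP2-null lines, against 7.82 and 7.76 in wild-type lines. The groups did not overlap on this probe set, with a log2 difference of 0.19 (SE 0.23). The dimmer Vegfa probe set had -0.24 (SE 0.24), and there the groups did not overlap in the other direction. Its values were 7.44 and 7.43 in RBP2-null lines and 7.58 and 7.77 in wild-type lines. Adm, which encodes the vessel-relaxing peptide adrenomedullin, had 0.18 (SE 0.28), and 0.19 on another probe set. Car9, a carbonic anhydrase at the cell surface that is close to a pure HIF readout in many cells, was dim. It had 4.51 and 5.30 in RBP2-null lines, against 5.95 and 4.73 in wild-type lines. Lines of 1 genotype differed by up to 1.22, and the log2 fold change of -0.44 (SE 0.52) became 0.18 without wild-type line 1.

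Bnip3 drives the removal of mitochondria, and Ddit4 (Redd1) restrains mTORC1. Bnip3 had a log2 difference of -0.015 with an interval from -0.50 to 0.47, and Ddit4 had -0.0051 with an interval from -0.50 to 0.49. Bnip3l, the relative of Bnip3, was read only by 3 probe sets shared with a pseudogene and was not used. P4ha1 and P4ha2, the collagen prolyl hydroxylases, had -0.011 and -0.15, with standard errors of 0.20 and 0.25. The dimmer P4ha1 probe set had -0.33 (SE 0.24), with both RBP2-null lines below both wild-type lines. Ndrg1, a stress-responsive gene that hypoxia raises, had -0.059, and its 4 dimmer probe sets had 0.090 to 0.25. Ankrd37, an ankyrin-repeat gene that hypoxia induces, had 4.85 and 5.27 in RBP2-null lines and 4.37 and 5.28 in wild-type lines. Its wild-type lines differed by 0.90 and enclosed both RBP2-null lines.

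The 11 tested HIF-responsive genes had 4 estimates above 0 and 7 below, with a median log2 fold change of -0.011, and 0 passed. On the brightest probe sets, both RBP2-null lines lay on 1 side of both wild-type lines for 2 of them, Vegfa above and Egln1 below. This was 18.2%, against 29.5% of all probe sets. On dimmer probe sets, both RBP2-null lines lay below both wild-type lines for Vegfa and P4ha1, and the groups overlapped for Egln1. The median had no stable sign: it was -0.084 to 0.065 with each array left out, and 0.086 with arrays centred on their medians, relative to the median of all probe sets. The glycolytic enzymes with the motif are not set against those without it, since no enzyme was called.

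Several genes were read by more than 1 probe set, and this set a limit on single estimates. More than 1 probe set was kept for 18 genes, and in 11 of these the estimates fell on both sides of 0. The widest spans were those of Egln1, from -0.38 to 0.54, and Pgk1, from -0.24 to 0.45. Over all 67 kept probe sets of these genes, 30 estimates lay above 0 and 37 below (median -0.015), and 26.9% had groups that did not overlap, against 29.5% of all probe sets.

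**Figure D4:**
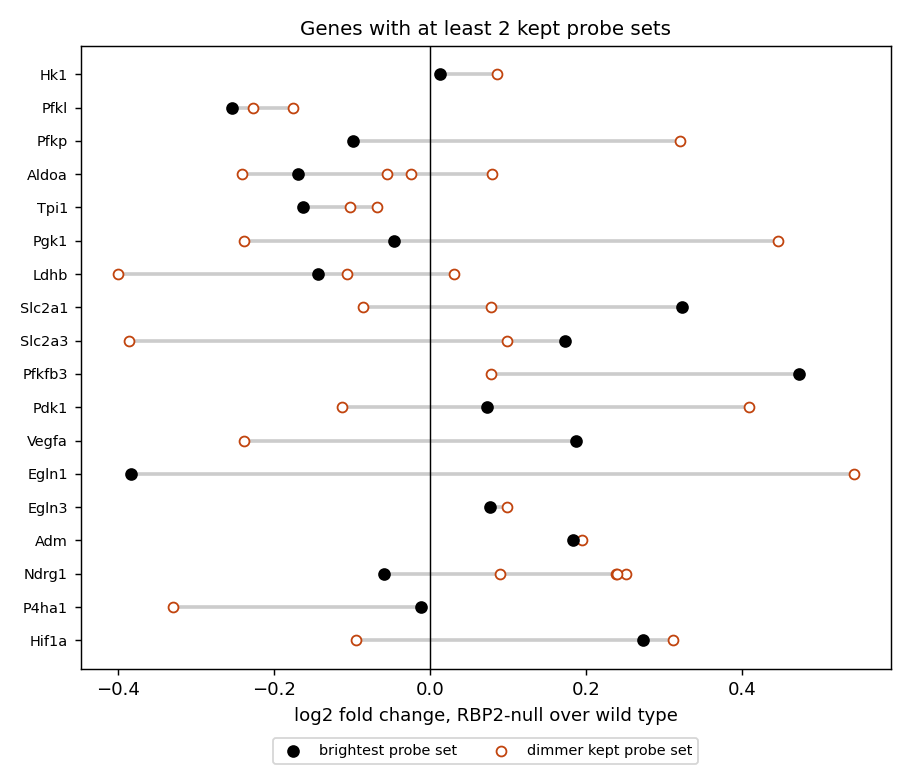
Log2 fold change of RBP2-null over wild type for each kept probe set of the 18 genes with at least 2, with the brightest filled and dimmer ones open and a grey line spanning each gene. The probe sets of 11 genes lie on both sides of 0, among them Egln1, Pgk1, Slc2a3 and Vegfa.

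Neighbouring parts of the same metabolism gave 0 calls as well. Of 11 tested paralogues and other regulators of glycolysis, from 22 listed, 4 estimates were above 0 and 7 below, and the nearest to a call was Tigar, a brake on glycolysis and p53 target, with 0.22 (SE 0.29). The pyruvate dehydrogenase complex with its kinases and phosphatases had 3 estimates above 0 and 6 below among 9 genes (median -0.15). Its phosphatase Pdp2 had -0.40 (SE 0.30), or -0.58 to -0.19 with each array left out. In the pentose phosphate pathway, which leaves glycolysis at the first sugar phosphate and had 7 of 8 listed genes tested, 4 estimates lay above 0 and 3 below. Pgls had -0.44, Rpia -0.39 and Taldo1 0.24, with standard errors of 0.26, 0.25 and 0.21, and in these 3 of the 7 the groups did not overlap, or 42.9%, against 29.5% of all probe sets. With each array left out, Pgls ran from -0.78 to -0.099 and Rpia from -0.54 to -0.24.

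Other HIF pathway components had 4 of 9 estimates above 0 and 5 below. Cited2, which competes with HIF for its coactivator, had 0.32 (SE 0.20), or 0.16 to 0.48 with each array left out. Egln2, the prolyl hydroxylase that HIF does not induce, had -0.35 (SE 0.28) and ran from -0.59 to -0.12 with each array left out. Vhl, the ligase subunit that recognises hydroxylated HIF, had -0.23 (SE 0.25), and up to 0.11 on dimmer kept probe sets. Of 24 further tested hypoxia-responsive genes, from 30 listed, 13 lay above 0 and 11 below (median 0.0058). The smallest unadjusted p among them belonged to Zfp36l1, an mRNA decay factor, with 0.32 (SE 0.19). Plod1, a collagen lysyl hydroxylase, had -0.31, and down to -0.76 on dimmer kept probe sets. Stc1, a secreted hormone, had 0.42, or 0.080 to 0.73 with each array left out, the lowest without RBP2-null line 1.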

How the data were processed

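Per the labels, total RNA was biotin-labelled and hybridised to Affymetrix arrays. The deposited values are a linear signal intensity per probe set; the step from probes to these values is not stated in the sources used here. The 64 control probe sets were left out, the other 45037 were quantile normalized, a pseudocount of 9 was added before log2, and the upper 60% by mean over all 4 arrays (27022) were kept. Adding 9 shrinks the differences of dim genes. The genotypes were fitted in limma 3.58.1 (R 4.3.3; lmFit, eBayes with a mean-dependent prior), two-sided, Benjamini-Hochberg adjusted over all kept probe sets. The fit was tested on simulated data, where it called 2.08% of log2 differences of 1 and 56.8% of those of 2. The simulated arrays also held log2 differences of 3 and 4, most of them called, which eases the adjusted threshold. The rates may be lower in these data, where 1 probe set passed. An absence of calls alone thus does not exclude a 2-fold difference.

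Per gene, the probe set with 1 symbol and the highest mean was used. Every gene is accounted for; array values are printed for 6 preset genes, the 14 with the smallest p and the 6 with the widest gap between lines; of each further list, up to 3 genes with the smallest p are given by their difference. Genes and lists were chosen with earlier results of these data known. Symbols came from the platform annotation, updated through Entrez numbers (34741 of 34945 probe sets matched). The number of arrays limits precision. Alternatives covered scaling, pseudocount, filter, variance model, replicate block, threshold, probe set choice and each array left out.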

Additional observations from a re-analysis of the deposited data

How the results depend on the processing

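Under every alternative with a test, 0 members of the set passed the threshold, in 443 tested values of single members; the 18 averages over probe sets were not tested. The count over all probe sets, 1 as reported, was 2 with median-centred arrays. It was 0 in each of 3 settings: arrays left unscaled, all probe sets tested, or a variance prior that ignores the mean. With an array left out it was between 0 and 41, the highest without wild-type replicate 2. With the replicate number as a replicate block it was 49, again with 0 members; same-numbered lines share only a number, since the labels name no litter or day and line differences correlated at 0.113 over 2 pairs. Scaling moved the median of all probe sets by 0.38 (none) and 0.18 (median-centred), and values there are relative to it.

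Of the 34 tested members, 11 kept their sign in every alternative run and 23 did not. Signs with median-centred and with unscaled arrays were taken relative to the median of all probe sets, so these settings are the same check. Before that median was taken off, Aldoa, Ldha, Ldhb, Pgam1, Pfkm and Pdk3, counted among the 11, lay above 0 on unscaled arrays. With median-centred arrays, as without scaling, log2 fold changes on the other side of 0 were -0.0071 for Aldoc, 0.094 for Pkm, 0.091 for Slc16a3, -0.023 for Pdk1, 0.11 for Bnip3, 0.13 for Ddit4, 0.0082 for Ndrg1 and 0.14 for P4ha1. Averaging all kept probe sets gave -0.038 for Slc2a3, 0.11 for Pfkp, 0.054 for Pgk1, -0.026 for Vegfa, 0.080 for Egln1 and 0.15 for Ndrg1, and leaving out probe sets that can bind several transcripts gave -0.39 for Slc2a3 and 0.090 for Ndrg1. With each array left out, the range was -0.084 to 0.44 for Slc2a3, -0.13 to 0.16 for Hk1, -0.56 to 0.055 for Pfkl, -0.27 to 0.070 for Pfkp, -0.32 to 0.032 for Pfkfb4, -0.12 to 0.36 for Aldoc, -0.44 to 0.12 for Tpi1, -0.12 to 0.072 for Pkm, -0.40 to 0.79 for Slc16a1, -0.41 to 0.39 for Slc16a3 and -0.12 to 0.26 for Pdk1. It was -1.05 to 0.18 for Car9, -0.026 to 0.17 for Egln3, -0.13 to 0.10 for Bnip3, -0.22 to 0.20 for Ddit4, -0.19 to 0.57 for Adm, -0.34 to 0.21 for Ndrg1, -0.12 to 0.093 for P4ha1, -0.41 to 0.10 for P4ha2 and -0.22 to 0.70 for Ankrd37. The cause was not tested.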
